A study of Mus musculus with 4 samples.

Results

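The genes described here encode the proteasome: its core subunits, its regulatory subunits, its activators, its inhibitor and its assembly chaperones. The rule that defines them uses the gene symbol only: it takes every mouse gene whose symbol begins with Psm, followed by a letter from a to g and a number, and no measured value enters it. Of 20001 gene names in the data, 47 met this rule, and these genes held 3363 of the 1076788 distinct positions listed. In every library 46 of the 47 had at least 1 listed position. The 44 genes listed in all 4 libraries could be compared, and Psma8, Psmb9 and Psmb10 could not.

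The study measured N6-methyladenosine (m6A), a methylated adenosine of mRNA, in mouse retinal organoids at day 6 of culture. The assay was GLORI, which deaminates unmethylated adenosine so that it is read as G, while m6A is still read as A. A site's level is the percentage of its A and G reads that show A. All organoids came from the retinal reporter line Rx:GFP, and FKBP12F36V-HA, a degron with an epitope tag, sat at the C-terminus of endogenous Mettl3, which encodes the catalytic subunit of the main mRNA m6A methyltransferase. 2 libraries came from untreated organoids (0 h) and 2 from organoids kept for 8 h in 125 nM dTAG13, a molecule that directs degron-tagged proteins to a ubiquitin ligase and then to the proteasome. The controls therefore carried the degron too and did not receive dTAG13. In the genotype field of the labels the Mettl gene carrying the degron differs from library to library, while the series title and design refer to METTL3. All labels give the same batch. Nothing states that the libraries of a group came from separate cultures, so p-values measure only the spread between these samples, which may be technical.

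The proteasome degrades proteins that carry ubiquitin chains. Its core is a barrel of stacked rings, in which alpha subunits (Psma genes) form the gates and beta subunits (Psmb genes) hold the proteolytic sites. A regulatory particle caps the barrel: ATPases (Psmc genes) unfold the substrate, and non-ATPase subunits (most Psmd genes) bind and remove ubiquitin or hold the particle together. Other caps (Psme genes) open the gate, Psmf1 binds the core as an inhibitor in vitro, and dedicated chaperones (Psmg genes) build the rings. The same machine carries out the degradation that dTAG13 induces.

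Some facts of the libraries bear on every value below. Coverage is one signal per gene and library and is not scaled to depth. Its median over the 12520 genes that every library lists was lowest in the first dTAG13 library, at 82.4, and 99.2 to 110.9 in the others. Only called sites are listed, with at least 15 A and G reads, at least 5 A reads and a level of at least 10%, and a position that is not listed can be unmethylated, below these limits or uncovered. Mettl3 itself had coverage 60.7 and 59.4 without dTAG13 and 64.4 and 61.8 with it, which checks its mRNA and not the protein that dTAG13 targets. All 6 retinal progenitor markers (Rax, Pax6, Six3, Six6, Lhx2 and Sox2) were listed in every library, with a summed coverage of 2518 and 2991 without and 1867 and 2687 with dTAG13. The 3 pluripotency markers were also listed, at a summed 332 to 398. Of 4 neuron markers, 2 were listed in every library and the others in only some. The sum over those listed in a library was 219 to 328. Of the mesendoderm markers, Sox17 was listed in every library at 26.0 to 69.8, Eomes in only some of them, and T in none. The part of cell composition and of depth in the results was not tested.

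Proteasome transcripts were among the better covered ones, and their coverage was lower with dTAG13 for most members. The 44 compared members had a median coverage of 343 and 362 in the untreated libraries and of 201 and 266 in the dTAG13 libraries, against 90th percentiles over all genes of 374 and 402 without and 254 and 360 with it. Coverage with dTAG13 was below both untreated values in each library for 31 of 44 members, above them for 1, and overlapped them for 12. Over all genes 28.1% were below in this way and 10.1% above. These orders are those of the deposited values. With each value divided by the median gene of its library, a comparison added after the data were seen, 34 members were below, 5 above (Psma5, Psmd5, Psmd7, Psmd10 and Psme2) and 5 overlapped, beside 29.2% of all genes below and 17% above. After centring each library on the median gene, the members' median log2 change was -0.57, with a range from -0.91 to 0.44 and a negative value in 38 of 44, beside a median of -0.07 over all genes. With any 1 library left out the members' median lay between -0.53 and -0.59, and it was -0.56 without the shallow dTAG13 library. No gene of the 12520 passed an adjusted p of 0.05 (limma, Benjamini-Hochberg; 0% called), with 0.363 as the lowest value. Before adjustment, 24 members were lower and none higher at p under 0.05, beside 8.34% and 4.4% of all genes. After quantile normalization, 4 members were lower and 2 higher at that unadjusted p, beside 555 and 575 of the 12520 genes. In whole organoids, fewer cells of a type and less RNA per cell cannot be told apart.

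**Figure D1:**
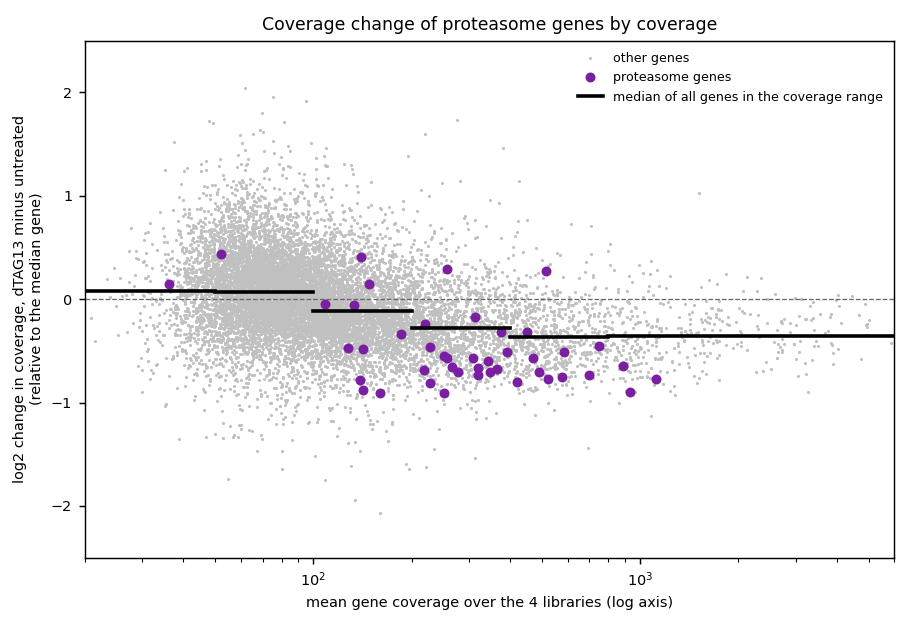
Each point is 1 gene, with its mean gene coverage over the 4 libraries on a log axis and its centred log2 change in coverage, dTAG13 against untreated, on the vertical axis; proteasome genes stand out in colour, and 19 genes lie outside the plotted range. Members sit mostly below 0, with a median of -0.57, and the line of medians over all genes falls from 0.07 at a coverage of 50 to 100 to -0.37 at 400 to 800.

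The median shift differed with coverage across all genes, and the members' medians lay below the median of genes of like coverage in the strata that held most of them. Between a mean coverage of 200 and 400, the 19 members had a median log2 change of -0.60 and all genes of that stratum -0.28. Between 400 and 800 the medians were -0.64 for 10 members and -0.37 for all genes, and between 100 and 200 they were -0.40 for 10 members and -0.12. In a fit restricted, after the data had been seen, to the 2471 genes with a mean coverage of at least 200, limma called 17 of 32 members lower and none higher at an adjusted p under 0.05, beside 12.5% of those genes called lower. The centring was kept from the full set, and these 2471 genes had a median log2 change of -0.32, with 84.1% negative. The calls therefore include a shift that well covered genes share. Among these 2471 genes, 28 of 32 members had both dTAG13 libraries below both untreated ones, beside 53.7% of the genes. Quantile normalization reduced the members' median change in the full set to -0.32.

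The ATPases of the regulatory particle had the most negative median of the families, -0.75, and all 6 were lower in both dTAG13 libraries. Psmc1 had coverage 190.1 and 232 in untreated and 83.8 and 133 in dTAG13 organoids, a log2 change of -0.91 (SE 0.22, limma adjusted p = 0.363). Psmc3 had 300.1 and 358 without and 122 and 224 with it, also -0.91 on the log2 scale. These were the largest decreases of any members, together with Psmb2, a non-catalytic beta subunit, at 1163 and 1283 without and 464 and 826 with dTAG13 and a log2 change of -0.90. The groups did not overlap for any of the 3 genes, and in each the first dTAG13 library was the lowest.

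In the core, 6 of 7 compared alpha subunits and 6 of 7 compared beta subunits were lower in both dTAG13 libraries, with median log2 changes of -0.51 and -0.57. Psma2, an alpha subunit and the member with the highest coverage, had 1509.7 and 1351 without dTAG13 and 680.1 and 921 with it. Psma1, another alpha subunit, had 877 and 886 without and 388 and 646 with it. The catalytic beta subunits differed from one another. Psmb6, which carries the caspase-like site, had 683 and 779 without and 311 and 535 with dTAG13, with no overlap. Psmb7, which carries the trypsin-like site, had 498 and 652 without and 393 and 333 with it, again with no overlap. Psmb5, which carries the chymotrypsin-like site, was covered at 39.3 and 31.6 without and 35.6 and 38.0 with dTAG13, so its groups overlapped. Among the alpha subunits Psma5 overlapped too, at 143 and 145 without and 129 and 176 with dTAG13.

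The Psmd genes, which are the non-ATPase subunits and 3 assembly chaperones (Psmd5, Psmd9 and Psmd10), lay on both sides. The log2 change was positive in Psmd10, Psmd5 and the subunit Psmd7 (0.27) and negative in 11 of 14. Its median was -0.57, with a range from -0.80 to 0.41, and 8 of 14 were lower in both dTAG13 libraries. Among these were Psmd14, the deubiquitinase of the regulatory particle, with 416 and 396 without and 190.1 and 279 with dTAG13, and Psmd6, with 483 and 606 without and 285 and 302 with it. Coverage was instead higher in both dTAG13 libraries for Psmd10, the assembly chaperone also called gankyrin, with 120.4 and 127 without and 147 and 163 with it (log2 change 0.41, SE 0.21, limma adjusted p = 0.453). Psmd5, another chaperone of the ATPase ring, had 231 and 236 without and 213 and 342 with dTAG13, with a centred log2 change of 0.29. Its deposited values overlapped, while relative to the median gene it was 2.33 and 2.29 without and 2.59 and 3.09 with dTAG13, both higher. Psmd9, the chaperone that binds the same ring elsewhere, had 192 and 152 without and 56.6 and 155 with it, so these 3 chaperones had unlike values.

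Among the alternative caps, Psme3, the nuclear activator, had 619 and 711 without dTAG13 and 280.5 and 478 with it, and Psme4, the activator known as PA200, had 155 and 181 without and 95.1 and 135 with it. Both had separate groups. Psme1 and Psme2 encode the paired subunits of the interferon-inducible activator and had unlike values. Psme1 had 168 and 181 without and 47.2 and 170.4 with dTAG13, and its log2 change was -0.88 (SE 0.46). Relative to the median gene Psme1 was 1.70 and 1.75 without and 0.573 and 1.54 with dTAG13, so most of the difference lay in the first dTAG13 library. Psme2 had 37.4 and 54.8 without and 54.0 and 62.4 with it, with the most positive log2 change of the members, 0.44 (SE 0.25), and deposited values that overlapped. Psme2b, its closely related copy, had 133 and 170.2 without and 102 and 104 with dTAG13, and reads could have been split between Psme2 and Psme2b, so the values of both are uncertain. Psmf1 overlapped at 92.5 and 136 without and 92.3 and 114 with it. Of the 4 core chaperones, Psmg1 and Psmg2 were lower in both dTAG13 libraries, at 477 and 405 without and 254 and 255 with it for Psmg1.

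The subunits of specialised proteasomes were near the limit of listing. Psmb9, a catalytic subunit of the immunoproteasome, had 1 site in the first untreated and 1 in the first dTAG13 library and none in the others, at coverage 32.7 and 39.1. Psmb10, its partner subunit, had 3 and 4 sites without dTAG13, none in the first dTAG13 library and 7 in the second, at coverage 31.8 and 43.3 without and 83.3 in the second dTAG13 library. Psma8, an alpha subunit known from spermatogenic cells, had no site in the first untreated library and 2 in each of the others, at coverage 30.8 to 47.5. None of the positions listed for these genes recurred in a second library. The symbols Psmb8 and Psmb11 also fit the rule, but no site was listed under either in any library.

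**Figure D2:**
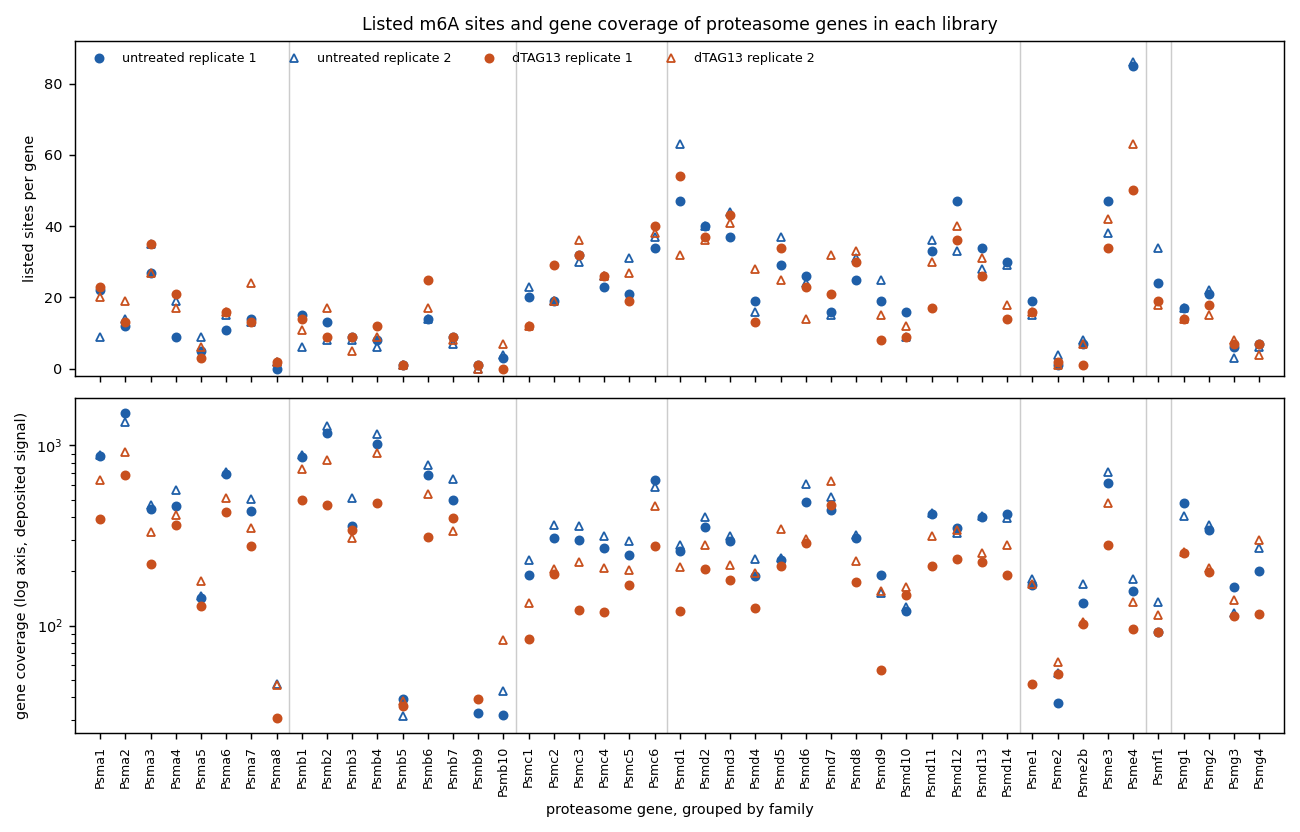
For each of the members, grouped by role, the panels show the number of listed sites and the gene coverage (log axis) in each of the 4 libraries, with untreated and dTAG13 libraries marked apart. Both dTAG13 coverage points lie below both untreated ones for 31 members, whereas site counts mostly interleave, with 10 members lower and 6 higher in both dTAG13 libraries.

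Far more of the members were lower in coverage than in the number of sites listed. In the members, the untreated libraries listed 974 and 999 sites (986.5 ± 17.7, SD, n = 2) and the dTAG13 libraries 897 and 939 (918 ± 29.7, n = 2). The ratio was 0.931, and the groups did not overlap. In all genes together the dTAG13 libraries listed 178739 and 201935 sites, against 260741 and 272174 in the untreated ones, a ratio of 0.714. With 2 libraries against 2, an exact two-sided permutation test cannot go below p = 0.333, which is the value for both ratios. By gene, both dTAG13 libraries listed fewer member sites than both untreated ones for 10 of 44 members, beside 44.6% of all genes, and more for 6, beside 4.53%. The change in sites differed between coverage strata over all genes. Between a mean coverage of 200 and 400 the median log2 change in sites was -0.13 for the members and -0.26 for all genes, and between 400 and 800 it was 0.33 for the members and 0.00 for all genes. Between 100 and 200 the order was the other way, at -0.60 for 10 members and -0.51 for all genes.

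Site counts summed by family lay on different sides. The alpha subunits together listed 100 and 116 sites untreated and 126 and 131 with dTAG13 (ratio 1.19), and the beta subunits 73 and 54 without and 80 and 75 with it (ratio 1.22). In both core families the dTAG13 libraries had the higher counts. The ATPases listed 149 and 166 without and 158 and 158 with it (ratio 1.00), which overlapped. The Psmd genes listed 418 and 430 without and 365 and 387 with it (ratio 0.887), and the activators 159 and 151 without and 103 and 129 with it (ratio 0.748). Psmf1 listed 24 and 34 without and 19 and 18 with it, and the core chaperones 51 and 48 without and 46 and 41 with it. The difference between families was not tested.

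5 genes held the most sites, counted without regard to transcript length. Psme4 listed 85 and 86 sites in untreated and 50 and 63 in dTAG13 libraries, so its groups did not overlap. Psmd1, a large scaffold subunit of the regulatory particle, listed 47 and 63 without and 54 and 32 with it. Psmd3 listed 37 and 44 without and 43 and 41 with it, Psme3 47 and 38 without and 34 and 42 with it, and Psmd12 47 and 33 without and 36 and 40 with it. All but Psme4 overlapped. At the other end, Psmb5 had 1 site in every library, each at a different position.

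Relative to coverage, the fitted change in sites was positive for most members, with none called. Summed over the compared members, there were 5.40 and 5.12 sites per 100 units of coverage without dTAG13 and 8.81 and 6.49 with it. In limma's fit of log2 sites per unit coverage (0.5 added to the site count), the members' median change was 0.54, from -0.78 to 1.40 and negative in 10 of 44, whereas the median over all genes was -0.35. No gene was called (limma, adjusted p under 0.05, 0% of 12520). At an unadjusted p under 0.05, 5 members were higher (Psma1, Psma2, Psmb2, Psmb6 and Psmc3), beside 2.1% of all genes, and none was lower, beside 10.9%. Once the libraries were centred, 19 members were higher and none lower at that p, beside 929 and 460 of the 12520 genes. With any 1 library left out, the members' median change lay between 0.44 and 0.74. This measure also changed with coverage over all genes: the median log2 change was 0.09 at a coverage of 200 to 400 and 0.44 at 400 to 800, and the members of those strata had 0.52 and 0.89. For the number of sites alone, the members' median log2 change was -0.06 and that of all genes -0.47.

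Psma1 had the largest change in this ratio, from 2.51 and 1.02 sites per 100 units without dTAG13 to 5.93 and 3.10 with it (log2 change 1.40, SE 0.58, limma adjusted p = 0.374). Psmb6 went from 2.05 and 1.80 to 8.03 and 3.17 (log2 change 1.38), and Psmb4, a non-catalytic beta subunit, from 0.787 and 0.517 to 2.52 and 0.995 (log2 change 1.28). In all 3 genes the groups did not overlap, and the first dTAG13 library, where coverage was lowest, had the highest ratio. The most negative members were Psme2 (log2 change -0.78), Psme2b (-0.70) and Psma5 (-0.66), each with fewer than 10 sites in any library. Of these, Psma5 alone had separate groups, at 3.51 and 6.19 sites per 100 units without and 2.33 and 3.42 with dTAG13.

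The gene-wise conversion rate, the percentage of A read as G, was slightly higher with dTAG13 in the members as in other genes. The members had a median unconverted share of 4.11% and 3.68% in untreated and 3.03% and 3.20% in dTAG13 libraries (3.90 ± 0.301 and 3.12 ± 0.122, SD, n = 2 each), and over all genes it was 4.15% and 3.78% without and 3.13% and 3.26% with it. Both dTAG13 libraries lay below both untreated ones for 15 of 44 members, beside 40.9% of all genes, and above for 1, beside 6.05%. The median change in the log2 odds of the unconverted share was -0.19 in the members and -0.29 over all genes. Once the libraries were centred on the median gene the members' value turned to 0.13. No gene passed the threshold (limma, 0% called), and at an unadjusted p under 0.05 there were 2 members lower, beside 11.3% of all genes, and none higher, beside 1.06%. With any 1 library left out, the members' median change lay between -0.26 and -0.12. The 2 members were Psmb2, at 4.09% and 3.86% without and 1.57% and 2.56% with dTAG13, and Psmg3, at 7.37% and 4.35% without and 2.97% and 2.99% with it. Next came Psmb7, at 4.90% and 4.40% without and 3.57% and 2.43% with it. The most positive values belonged to Psma7 (4.13% and 4.27% without, 4.68% and 5.55% with), Psmg1 (3.04% and 2.79% without, 2.57% and 4.63% with) and Psmd14 (3.82% and 3.25% without, 2.82% and 5.39% with), of which Psma7 alone had separate groups.

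Listed sites in proteasome genes had low levels. The median level of a listed member site was 17.5% and 17.2% without dTAG13 (17.4 ± 0.169, SD, n = 2) and 19.2% and 20.3% with it (19.7 ± 0.822, n = 2), where the median over all genes was 28.2% and 27.0% without and 29.3% and 29.3% with it. The dTAG13 libraries were higher by 2.40 percentage points (exact permutation test, p = 0.333). With A and G reads summed over the listed sites, the level was 18.0% and 17.9% without and 19.0% and 19.2% with dTAG13, so the groups were again separate. Since only sites at 10% or more are listed, these are levels of called sites and not of all adenosines. A median member site rested on 193 and 191 reads without dTAG13 and on 138 and 188 with it. Over all genes a median site rested on 96 and 99 reads without and on 87 and 112 with it. Since a listed site needs at least 5 A reads, low levels can be listed only where reads are many. The part of read depth in the lower levels of member sites was not tested.

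Sites at a level of 40% or more were a minority in every library. They made up 13.3% and 13.6% of member sites without dTAG13 (95% Wilson intervals 11.4 to 15.6% and 11.6 to 15.9%) and 16.5% and 17.9% with it (14.2 to 19.1% and 15.6 to 20.5%). Over all genes these shares were 36.6% and 34.8% without and 38.3% and 38.8% with it. In numbers, the members had 130 and 136 of them untreated and 148 and 168 with dTAG13, and at 90% or more 24 and 24 without and 30 and 53 with it. Over all genes there were 95480 and 94786 at 40% or more without and 68482 and 78328 with dTAG13. At 90% or more all genes had 41200 and 39565 without and 31432 and 37163 with it. Intervals here cover counting error only, since reads may include PCR copies.

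**Figure D3:**
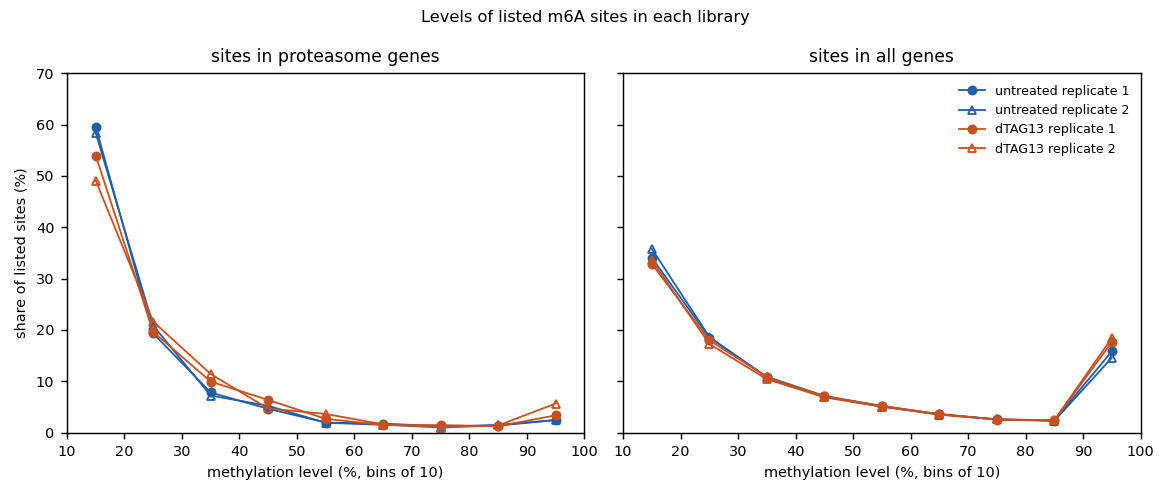
The panels show the percentage of listed sites in each 10-point bin of level, from 10% to 100%, for proteasome genes and for all genes in each of the 4 libraries. Between 10% and 20% lie 59.5% and 58.4% of the member sites without dTAG13, and at 40% or more lie 13.3% and 13.6%, against 36.6% and 34.8% over all genes.

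Few member sites recurred. Of the 3363 distinct sites, 2965 (88.2%) appeared in a single library, 356 (10.6%) in 2, 36 (1.07%) in 3 and 6 (0.178%) in all 4, and over all genes these shares were 91.4%, 7.77%, 0.728% and 0.146%. The untreated pair shared 104 member sites, the dTAG13 pair 86 and the mixed pairs 70 to 89. Over all genes the untreated pair shared 25086, the dTAG13 pair 11156 and the mixed pairs 12953 to 14168. Member sites with at least 50 reads in the first untreated library were listed in the second at 11.4% (100 of 875), in the dTAG13 libraries at 8.69% and 9.71%. From the second untreated library, 11.5% (103 of 897) were listed in the first and 8.03% and 7.69% in the dTAG13 libraries. The mean dTAG13 share was 0.745 of the untreated share in the members and 0.557 over all genes.

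For high sites the ratio was lower and rested on few sites. Among sites with at least 50 reads, 77 member sites were at 40% or more in the first untreated library, of which 11 were listed in the second, 2 in the first dTAG13 and 6 in the second dTAG13 library. Of 75 such sites in the second untreated library, 7, 5 and 2 were listed in the first untreated and in the first and second dTAG13 libraries. The ratio of shares was 0.432 in the members and 0.297 over all genes.

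Both untreated libraries listed 4 member sites at 40% or more each, a selection made after their values were seen. None reached 40% in a dTAG13 library, and 1 was listed there at all. Over all genes 5750 sites met this condition, of which 7.23% reached 40% in a dTAG13 library and 16.4% were listed in one. Positions are given as the tables list them. The submitters' processing notes name mm10, but only 5.92% of the member sites fall inside the interval that RefSeq gives for their gene on that build, GRCm38, so the build is uncertain, and exon, intron and UTR were not assigned. The strand is known, and distance is counted from the 3′-most site listed for the gene in any library.

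In Psma4, an alpha subunit, the site at position 54865195 of chromosome 9, plus strand, 101 bases from the gene's 3′-most site, had a level of 79.4% in 1173 reads and 70.2% in 1635 reads without dTAG13. It was listed in no dTAG13 library, although these listed 6 and 4 other sites within 300 bases, at medians of 833.5 and 640.0 reads. In Psmd12, a lid subunit, the site at 107388612 of chromosome 11, plus strand, was at 55.2% in 1319 reads and 75.0% in 712 reads. It was also not listed with dTAG13, where 6 and 9 other sites lay within 300 bases, at medians of 185 and 390 reads. Psmd5 had a site at 34742816 of chromosome 2, minus strand, at 81.7% in 290 reads and 78.0% in 159 reads, again not listed with dTAG13, where 2 and 5 neighbours were. Psmb1, a non-catalytic beta subunit, had a site at 15696286 of chromosome 17, minus strand, at 53.1% in 2054 reads and 49.6% in 2221 reads without dTAG13. The first dTAG13 library did not list it, and the second listed it at 14.0% in 1647 reads. The sites were picked for their high untreated level. The one still listed with dTAG13 was lower there than in either untreated library.

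Sites listed in both libraries of a group and in neither of the other, with a mean level of at least 40%, numbered 6 for untreated and 5 for dTAG13, of 75 and 67 sites so split. Over all genes the numbers were 7853 for untreated and 1805 for dTAG13, of 20066 and 7672 sites so split. Beside Psma4, Psmd12 and Psmd5, the untreated sites lay in Psma3 (71042561 of chromosome 12; 98.3% and 39.7%), Psme3 (101210773 of chromosome 11; 59.3% and 26.4%) and Psme4 (30762125 of chromosome 11; 75.0% and 18.7%), where replicate levels differed widely. The dTAG13 sites lay in Psmc5 (106152050 of chromosome 11; 74.2% and 16.1%), Psmd7 (108310815 of chromosome 8; 93.2% and 19.8%), Psmd9 (123386478 of chromosome 5; 58.0% and 26.5%), Psme4 (30754308 of chromosome 11; 19.2% and 100%) and Psme3 (101208033 of chromosome 11; 50.0% and 65.7%). Of these 5, the site in Psme3 alone was at 40% or more in both libraries, in 18 and 35 reads. Both replicates were thus at 40% or more at 3 of the 6 untreated and 1 of the 5 dTAG13 sites. Over all genes this held for 4807 of the 7853 untreated and 750 of the 1805 dTAG13 sites.

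**Figure D4:**
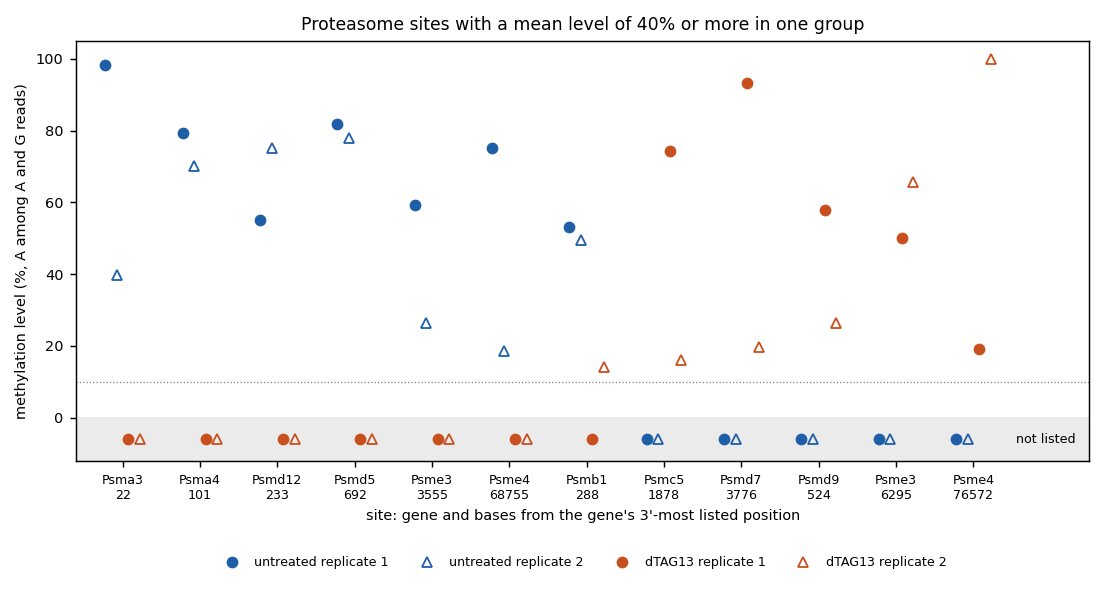
The plot gives the level, in percent, of member sites in each library that lists them. Shown are sites listed in both libraries of 1 group and in neither of the other, at a mean of 40% or more. The site in Psmb1, which the second dTAG13 library also lists, is added. A further Psmd12 site (107384323), listed in the first untreated and both dTAG13 libraries at a dTAG13 mean of 42.2%, is not plotted. Points in the grey band mark libraries that do not list the site, and the dotted line marks 10%, the lowest level listed. The sites in Psma4, Psmd12, Psmd5 and Psmb1 are at 40% or more in both untreated libraries, and the only value of these sites with dTAG13 is 14.0%.

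The position of high member sites within the listed span of a gene was also compared. Within 300 bases of the 3′-most listed site were 24.6% of the 130 sites at 40% or more in the first untreated library (95% Wilson interval 18.0 to 32.7%) and 31.6% of the 136 in the second (24.4 to 39.8%). For sites under 40% the shares were 14.8% and 17.8%. With dTAG13 the shares were 20.9% of 148 (15.2 to 28.2%) and 13.7% of 168 (9.30 to 19.7%) for the high sites and 17.4% and 14.7% for the others. Both dTAG13 shares of high sites were below both untreated ones, while the interval of each dTAG13 library overlaps that of the first untreated library, and the interval of the first dTAG13 library also that of the second. Listed member sites also lay close together: 35.1% and 34.8% without and 37.7% and 37.4% with dTAG13 had another listed site within 10 bases, beside 32.2% and 30.3% without and 29.3% and 29.0% with it over all genes.

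The 6 member sites listed in every library were low, and none was called. A quasi-binomial model of A and G reads, fitted to 2321 sites with at least 20 reads in each library, called 53 sites (2.28%), of which 51 (2.2% of those tested) were lower with dTAG13. None of the 6 member sites was among them, with adjusted p from 0.807 to 0.964, and none was at an unadjusted p under 0.05, beside 5.95% of sites lower and 3.4% higher at that level. Refits with edgeR and with limma on log2 odds also called none of the 6. In Psme3 the site at 101214229 of chromosome 11, plus strand, 99 bases from the 3′-most site, was at 10.6% and 11.6% without and 10.2% and 14.9% with dTAG13, in 3280 to 6541 reads. In Psmd11, a lid subunit, the site at 80363752 of chromosome 11 was at 12.2% and 13.7% without and 16.4% and 11.2% with it, in 1637 to 4610 reads. At both sites the change in the mean was smaller than the SD of the dTAG13 values.

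Of the other 4 genes, only Psmb4 had separate groups. Psmb4 (94794135 of chromosome 3, minus strand) was at 13.5% and 16.9% without and 10.5% and 13.3% with dTAG13, so the nearest values of the groups were close. Psmd5 (34747728 of chromosome 2) was at 18.4% and 24.0% without and 11.9% and 22.8% with it, and Psma2 (14798207 of chromosome 13) at 17.2% and 15.7% without and 13.9% and 18.9% with it. Psmb1 (15696148 of chromosome 17) was at 11.5% and 15.5% without and 52.8% and 13.2% with it, where the 52.8% came from 36 reads.

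The 36 sites listed in 3 libraries lay in 25 members. The library that lacked the site was the first dTAG13 library for 12 of them, the second for 11, the first untreated for 9 and the second untreated for 4. Psmd13, a lid subunit, had the most, 4, of which 3 lay within 300 bases of its 3′-most site, at levels from 10.0% to 33.3%. In Psmb4 a second site, at 94794122 beside the one listed everywhere, was at 16.8% and 21.3% without dTAG13 and 10.8% in the second dTAG13 library, in 1119 to 1836 reads. In Psma3 the site at 71041232 of chromosome 12 was at 29.2% and 29.5% without and 33.1% in the first dTAG13 library. In Psmd12 the site at 107384323 of chromosome 11 was at 25.3% in the first untreated library and 57.5% and 27.0% with dTAG13. Levels thus differed in either direction among these sites.

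Genes that work with the proteasome were described from a separate list. This list of 25 took in proteasome-bound ubiquitin receptors, shuttle factors, ubiquitin genes and the transcription factors of proteasome genes, and 23 could be compared. None was called in any of the 3 gene-wise fits (limma, adjusted p under 0.05), 18 of 23 had a negative coverage change, and the median was -0.25 on the log2 scale. After quantile normalization 11 of 23 were negative and the median was 0.02, so the direction did not hold there. Among genes with a mean coverage of at least 200, the fit added after the data were seen called 4 of 14 lower, beside the 12.5% given above. Both dTAG13 libraries were below both untreated ones for 11 and above for 2, beside the 28.1% and 10.1% of all genes given above. Those above were Nfe2l2, a stress-response transcription factor, at 75.0 and 58.3 without and 81.6 and 112 with dTAG13, and Ngly1, the glycanase that processes the factor Nfe2l1, at 42.9 and 48.8 without and 53.9 and 62.2 with it. Nfe2l1 itself overlapped, at 122 and 152 without and 125 and 157 with it, and Ddi2, the protease that cleaves Nfe2l1, was below, at 94.9 and 94.8 without and 50.1 and 71.7 with it. Listed sites were fewer in both dTAG13 libraries for 14 of the 23 and more for 1, beside 44.6% and 4.53% of all genes. Of the 44 proteasome genes 10 were lower and 6 higher.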

How the data were processed

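GLORI libraries of polyA RNA were grouped by the treatment in their labels, 2 untreated and 2 with dTAG13. The authors deposited 1 table of called sites per library, with replicates not pooled. The deposited counts are reads with A or G and reads with A at a position. The deposited fractions are the site level, A over A and G reads, and the conversion rate of the gene. The coverage signal of a gene is the authors' value, 1 per gene and library. The adjusted p-value of a site, as deposited by the authors, served only as a stricter filter. Aligner and caller are not given in the sources used here, and the submitters' processing notes name mm10. Per the file names, molecular identifiers had been trimmed, and whether duplicates were collapsed is not given.

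The members and lists were chosen with earlier results of these data known. All 47 member names were found in the RefSeq table of GRCm38, none of whose coordinates are printed. Gene coverage, unconverted share and sites per coverage were fitted with limma 3.58.1 in R 4.3.3 over the 12520 genes listed in all 4 libraries. Gene coverage was taken as log2, centred per library on the median gene. The unconverted share was taken as log2 odds against the converted share, with 0.001 added to each. Sites per coverage were taken as log2 after adding 0.5 to the site count. Site levels were fitted with a quasi-binomial model whose dispersion was moderated with limma; edgeR 4.0.16, limma on log2 odds and Fisher's exact test were alternatives. Adjustment was by Benjamini-Hochberg over all features. Single values had exact two-sided permutation tests (scipy 1.17.1). The scripts were tested on simulated data. Named were members with a site in 3 or 4 libraries (summarised), sites split by group at a mean of 40% or more, the 5 members with most sites, members not listed in some library, the 3 largest changes each way per measure, and the catalytic and tissue-specific subunits. Other members stand as examples of their family, chosen after their values were seen. Alternatives were normalization, filters on low values, read minima, pseudocounts, the replicate block and leaving out each library.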

Additional observations from a re-analysis of the deposited data

How the results depend on the processing

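Depth limits these results: the first dTAG13 library had the lowest coverage, and sites can be listed only where coverage allows. With 2 libraries per group no single-value test can pass 0.05. The ratio of listed member sites, 0.931, was 0.898 to 0.956 under the read, A-read and p-value minima and 0.909 to 0.952 with each library left out, but turned to 1.19 for sites at 40% or more and to 1.46 when divided by summed coverage; coverage itself was lower with dTAG13. Over all genes the ratio for sites at 40% or more was 0.772. The difference in median level, 2.40 points, ranged from 1.81 to 2.98 with each library left out and was 1.94 at 50 reads or more and 1.18 from summed reads. The recurrence ratio, 0.745, was 0.729 to 0.760 elsewhere and 0.432 for reference sites at 40% or more, on 77 and 75 sites; the cause was not tested. No member was called in coverage under any alternative except among genes with a mean coverage of at least 200, an alternative chosen after the data were seen, where 17 members were called lower, with 310 of all genes lower and 21 higher; the cause was not tested. Without centring, 9 genes were called lower and 6 higher, no member among them, and the median over all genes was -0.15. Fisher's test on summed reads, which leaves out the spread between libraries, called 2 of the 6 member sites (Psmb4 lower, Psme3 higher) and 296 of 2321 sites lower and 235 higher. The median change in sites per coverage, 0.54, was 0.44 to 0.74 with each library left out and 0.98 when centred.

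The labels number the libraries 1 and 2 in both groups, but same-numbered libraries did not deviate together (correlation 0.0023 for coverage, 0.0079 for the unconverted share and -0.0061 for sites). No pairing was thus seen in these measures, but the correlations cannot tell whether same-numbered libraries shared a culture or preparation. With the replicate number as a block, 0 members were called in any fit, as without it, and the sites called over all genes went from 53 to 0. Leaving out any 1 library also left 0 sites called.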
